A study of Xenopus tropicalis with 12 samples.

Results

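The comparison described here is the genotype by T3 interaction in tadpole brain RNA: for each transcript, the log2 fold change that thyroid hormone (3,5,3'-triiodothyronine, T3) produced in thra mutant tadpoles minus the log2 fold change that it produced in wild type (WT) tadpoles. All 12 RNA-seq libraries of the series enter it, 3 for each of 4 groups, in 1 fit with 4 group means, and the contrast is (mutant T3 − mutant vehicle) − (WT T3 − WT vehicle). A value of 0 means that T3 changed the level by the same factor in both genotypes, a value below 0 that the response was lower (less induced or more repressed) in the mutant, and a value above 0 that it was higher. Of 22018 features tested, 116 passed the test (0.527%), 78 with a lower response in the mutant (0.354%) and 38 with a higher one (0.173%). Features are the rows of the deposited table, of which those that begin with XLOC are gene models and those that begin with new_exon are further transcribed stretches, few of which carry a gene symbol.

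T3 acts through nuclear thyroid hormone receptors, TRα (encoded by thra) and TRβ (encoded by thrb), which bind DNA as partners of retinoid X receptors. Without hormone the receptors hold corepressors at their target genes, and hormone binding exchanges these for coactivators, so loss of a receptor can raise a target gene in the absence of hormone and blunt its rise in the presence of hormone. Both effects lower the T3 response as a ratio, and the interaction contains both. In the tadpole, T3 drives metamorphosis, and in the brain it is known for neural cell proliferation and differentiation.

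The methods give a commercial supplier for WT frogs, but not which parents the sequenced WT tadpoles had. The mutants, called thra mt-exon4 and here "mutant", were homozygous offspring of a line (TRαM5) in which TALENs had disrupted exon 4 of thra. All were Xenopus tropicalis at Nieuwkoop-Faber (NF) stage 54, kept for 16 h in water with 5 nM T3 or with vehicle, which the sample labels give as NaOH and the series design text as DMSO. The dissected tissue was the preoptic area, thalamus and hypothalamus with the pituitary, and each replicate pooled 5 tadpoles. The level of thra itself was not analysed here, and genotypes are those the labels give. Fewer cells of a type and less RNA per cell cannot be told apart in such tissue samples.

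The libraries held 41012459 to 67603703 expected counts. WT vehicle replicate 3 stood furthest from its fellows (chi-square per degree of freedom 29.9 and 39.2 against them, 9.98 between the other two), and the common dispersion was 0.0221 in WT vehicle, 0.00485 in WT T3, 0.0147 in mutant vehicle and 0.0115 in mutant T3. All 8 markers of neurons, astroglia and neurosecretory cells were present, and their summed level ran from 2653 to 2829 CPM (a count divided by the scaled library size and given on a common scale) over all 12 libraries. None of these 8 passed edgeR's interaction test (3 had an unadjusted p under 0.05), and limma-voom called 0 and DESeq2 2. Their T3 response in WT was called by edgeR for 4 of the 8, as for 1005 of the 1554 features with a symbol. A steady sum was therefore no test of equal tissue content. Gene symbols came from a table of genes that the authors had called T3-regulated in these WT libraries, nearly all of them induced. The 55 called features with a symbol (of 1554 with a symbol tested, 3.54%) therefore all had a lower response, and neither the symbols nor the gene lists below are independent evidence of direction. Over all 1554, the median log2 difference was −0.23 with 1387 below 0, and over all 22018 features the median was 0.03 with 45.7% below 0.

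**Figure D1:**
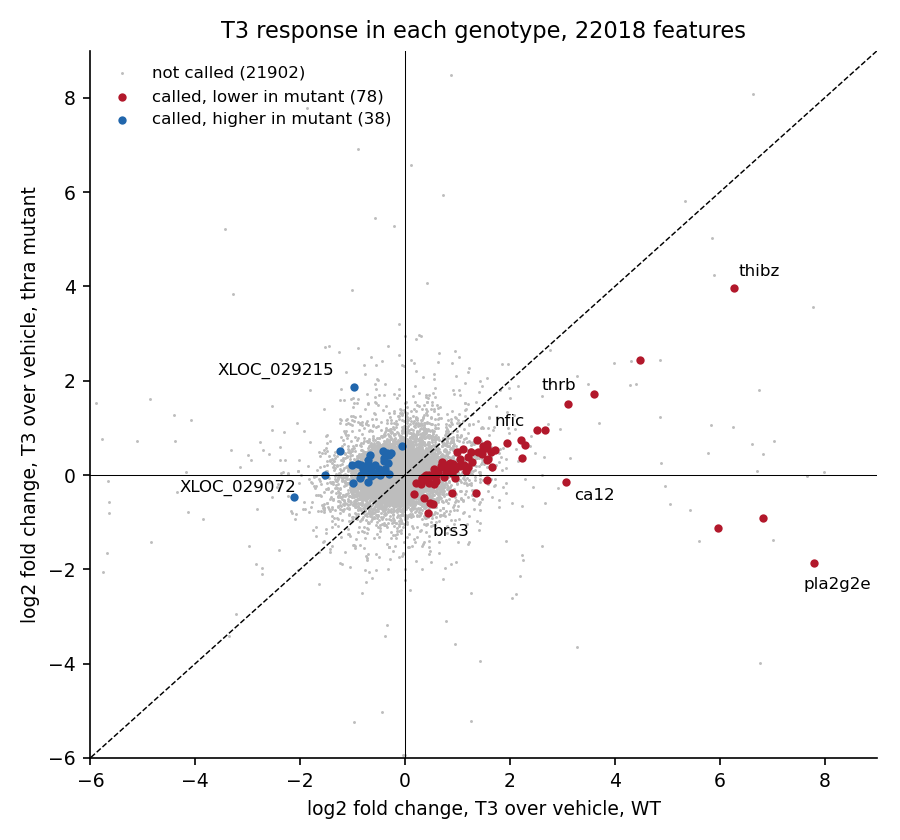
Each point is 1 of 22018 features, placed by its log2 fold change of T3 over vehicle in WT (x axis) and in the mutant (y axis); red and blue points passed the interaction test, the dashed line marks equal responses, and 17 features that were not called lie outside the axes. The 78 red points lie to the right of 0 and below the dashed line, the 38 blue points to the left of 0 and above it. In the mutant the log2 fold change ran from −1.86 to 3.97 for the red points (median 0.18). For the blue points it ran from −0.46 to 1.87 (median 0.14).

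Every one of the 78 features with a lower response had a WT response above 0, and every one of the 38 with a higher response had a WT response below 0. These signs are largely set by the choice of features, since the WT response is a term of the interaction and shares its libraries, so the counts that follow are a description and were not read against the shares of all features. The WT response itself passed the test for 76 of the 78, where 5.37% of all features were called as induced in WT, and for 35 of the 38, where 5.53% were called as repressed. In the mutant it passed for 17 of the 78 and 3 of the 38, where 0.254% of all features did. In WT the 78 had a median log2 fold change of 0.97, against 0.18 in the mutant, and the 38 had −0.65 against 0.14. The median share of the WT response (on the log2 scale) left in the mutant was 19.1% for the 78 and −23.9% for the 38, the latter a response of the other sign. Among the 78, 52 had the same sign in both genotypes with a smaller size in the mutant and 26 had opposite signs. Among the 38, 7 had the same sign and 31 had opposite signs. None of the 116 had a larger response of the same sign in the mutant. Measured as a step in CPM rather than as a ratio, the mutant's response minus the WT response had the same sign as on the log2 scale for all 116.

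The genes of the T3 response itself were the list with the most called members: 7 of 13 features tested for the receptor gene and early response genes (thrb, mmp11, igf2, traf3, thibz, nr3c2 and pim3), all 13 with a difference below 0 and a median of −0.82. Of all features with a symbol, 3.54% were called and 89.3% were below 0, with a median of −0.23. All 13 had a WT response that passed the test, so their direction is largely set by the choice of members. The paper showed igf2 and nr3c2 as examples of lower induction in the mutant, and pim3 and traf3 as examples of a raised mutant baseline. It drew them from RNA-seq of these same libraries, so the share called also depends on the choice of members. The gene thrb (XLOC_017285), which encodes TRβ and is induced by its own product, stood at 13.3, 13.5 and 12 CPM in WT vehicle, 118, 100.3 and 116 in WT T3, 29.6, 25.9 and 25.6 in mutant vehicle and 80.9, 78.4 and 71.6 in mutant T3. No group overlapped any other: mutant vehicle lay above WT vehicle, and mutant T3 below WT T3. Its log2 difference of −1.60 (standard error 0.12, edgeR adjusted p = 4.8e-05) came from responses of 3.11 and 1.51, and the genotypes differed by 1.06 in vehicle and by −0.54 under T3. The gene mmp11 (XLOC_003824), which encodes the matrix metalloproteinase stromelysin-3, stood at 5.45, 5.70 and 5.17 CPM in WT vehicle, 25.1, 25.4 and 29.1 in WT T3, 6.44, 6.81 and 5.98 in mutant vehicle and 10.5, 10.7 and 8.80 in mutant T3. The 3 WT T3 libraries stood well above all others. The log2 fold change was 2.28 in WT and 0.64 in the mutant, a difference of −1.64 (standard error 0.14, edgeR adjusted p = 0.00019). The growth factor gene igf2 (XLOC_026888) had 5.99, 7.23 and 4.36 CPM in WT vehicle, 34.4, 32.1 and 33.6 in WT T3, 6.66, 5.31 and 4.84 in mutant vehicle and 12.1, 9.32 and 11.0 in mutant T3. In vehicle the genotypes overlapped, and the difference of −1.56 (standard error 0.23, edgeR adjusted p = 0.011) lay on the T3 side, where all mutant libraries were under all WT libraries.

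The symbol thibz, a basic leucine zipper transcription factor gene first known from tadpole tissue, is paired with a pair of features between which reads could have been divided, so each is uncertain on its own. The feature XLOC_028082 stood at 0.418, 0.528 and 0.396 CPM in WT vehicle, 40.1, 26.8 and 37.6 in WT T3, 0.429, 0.544 and 0.923 in mutant vehicle and 11.7, 9.74 and 8.78 in mutant T3. It rose in both genotypes, by 6.27 in WT and 3.97 in the mutant, and the difference of −2.30 passed the test (standard error 0.37, edgeR adjusted p = 0.016). The call was lost with limma-voom (adjusted p = 0.13), with limma-voom and group weights (adjusted p = 0.21) and in edgeR without WT T3 replicate 3 (adjusted p = 0.051). The other feature, XLOC_028061, had 5, 0 and 29 counts in WT vehicle, 529, 632 and 764 in WT T3, 12, 18 and 0 in mutant vehicle and 174, 154 and 228 in mutant T3. With these low vehicle counts its difference of −1.65 had a 95% interval of −3.97 to 0.68 and did not pass (edgeR adjusted p = 0.52). The gene klf9 (XLOC_009053), a Krüppel-like transcription factor and direct target of liganded receptor, stood at 25.1, 27.0 and 10.6 CPM in WT vehicle, 334, 315 and 345 in WT T3, 40.9, 39.5 and 33.3 in mutant vehicle and 221, 184 and 186 in mutant T3. WT vehicle replicate 3 was the lowest of all 12 libraries. The log2 difference of −1.61 was near that of thrb in the main fit but missed the threshold (standard error 0.33, edgeR adjusted p = 0.051). It passed in 8 of 21 alternative fits, among them the fit without that library (adjusted p from 0.00080 to 0.14 over all alternatives). Over these alternatives the klf9 difference ran from −1.84 to −1.30, against −1.67 to −1.53 for thrb.

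The kinase gene pim3 and the TNF receptor adaptor gene traf3 shared with thrb a mutant vehicle group above WT vehicle. For traf3 (XLOC_022068) the values were 17.9, 16.7 and 15 CPM in WT vehicle, 39.0, 35.3 and 39.8 in WT T3, 27.0, 24.2 and 22.7 in mutant vehicle and 31.3, 34.1 and 30.7 in mutant T3. The 4 groups did not overlap, and the difference was −0.82 (standard error 0.12, edgeR adjusted p = 0.011). For pim3 (XLOC_013407) they were 29.6, 33.3 and 31.8 CPM in WT vehicle, 68.2, 68.3 and 66.9 in WT T3, 50.2, 46.0 and 43.1 in mutant vehicle and 72.4, 68.6 and 63.4 in mutant T3. Under T3 the genotypes overlapped, so that the difference of −0.55 (standard error 0.10, edgeR adjusted p = 0.027) lay in vehicle, where the mutant was higher by 0.56 on the log2 scale (edgeR adjusted p = 0.0048), against 0.01 under T3. This call held in 5 of the 12 fits that left out 1 library. The mineralocorticoid receptor gene nr3c2 (XLOC_034214) was the reverse: 17.2, 17.8 and 19.4 CPM in WT vehicle, 50.8, 45.7 and 44.7 in WT T3, 19.8, 19.1 and 19.9 in mutant vehicle and 30.7, 35.7 and 31.9 in mutant T3. Vehicle libraries overlapped between the genotypes, and the difference of −0.63 (standard error 0.11, edgeR adjusted p = 0.022) lay under T3, with a call in 4 of the 12 fits that left out 1 library. For dio3 (XLOC_014986), the deiodinase that inactivates T3, the values were 3.42, 2.17 and 2.67 CPM in WT vehicle, 11.0, 9.69 and 11.9 in WT T3, 1.84, 2.68 and 1.77 in mutant vehicle and 7.58, 7.70 and 7.16 in mutant T3. It rose in both genotypes with log2 fold changes of 1.98 and 1.84. The difference of −0.14 did not pass (standard error 0.25, edgeR adjusted p = 0.85), and its 95% interval was −0.68 to 0.40. The other members of the list, tiparp, mmp13 and klf13, had differences of −0.42, −0.24 and −0.24, and none passed.

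**Figure D2:**
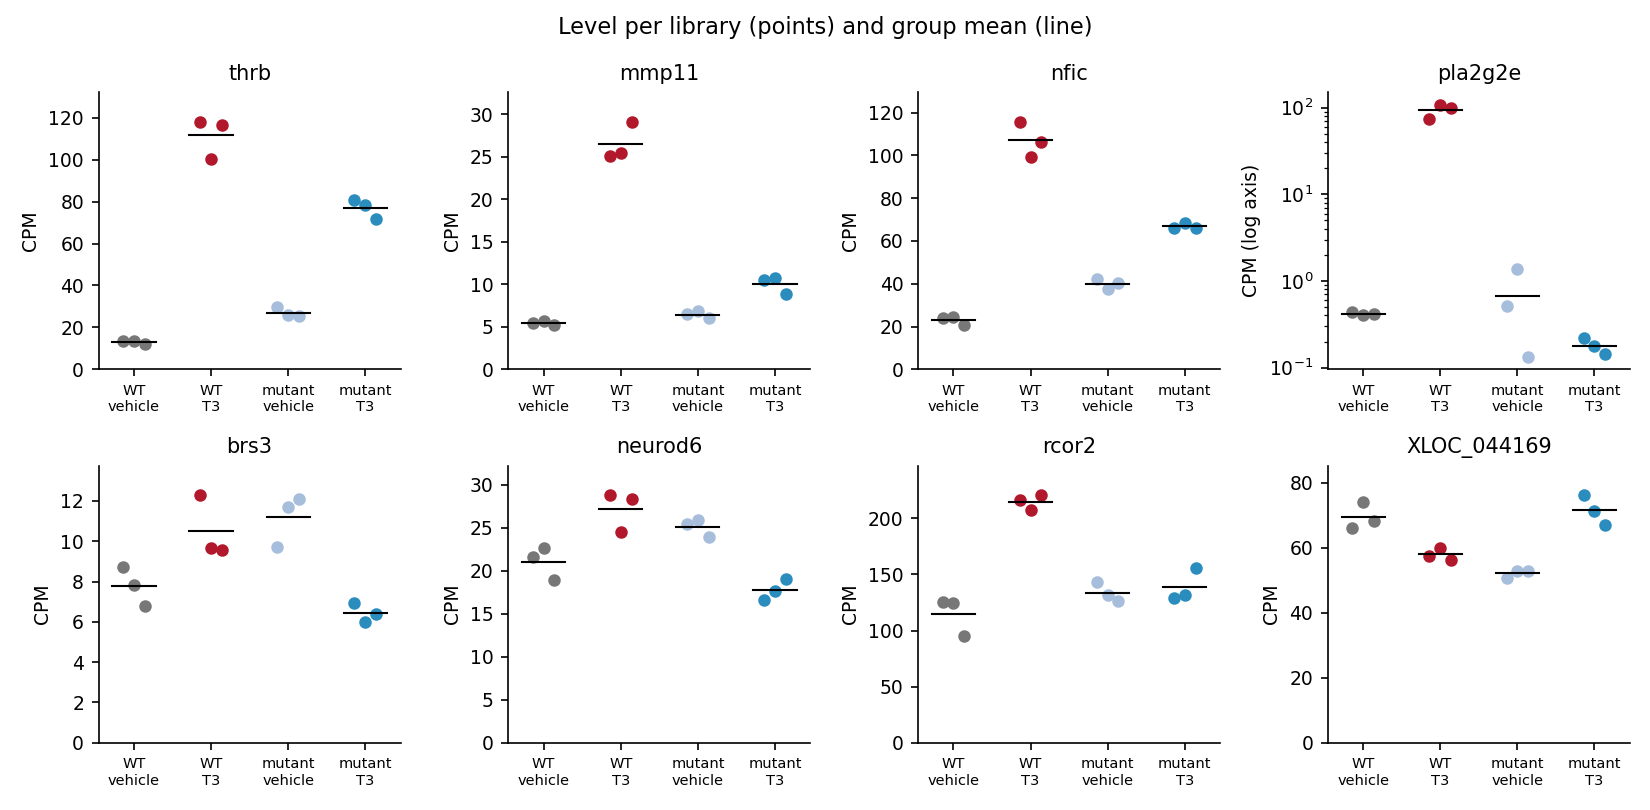
Level in CPM of 8 called features in each library (points) and as the mean of each group (line), on axes that start at 0 except for pla2g2e, which has a log axis. For thrb and nfic the mutant vehicle points lie above WT vehicle and the mutant T3 points below WT T3; for pla2g2e the WT T3 points stand alone at 74.6 to 109 CPM; for brs3 and neurod6 the mutant is lower with T3 where WT is higher; for rcor2 the mutant T3 points overlap mutant vehicle; for XLOC_044169 WT falls and the mutant rises.

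Transcription factors of neural cells came next by number called, with 4 of 23 tested features, all lower (nfic, nfix, neurod2 and neurod6). The median was −0.39, and 22 of 23 were below 0. Of all features with a symbol, 3.54% were called and 89.3% were below 0, with a median of −0.23. Members were chosen with earlier results of these data known, so the share called also depends on that choice. The nuclear factor I (NFI) genes encode DNA-binding proteins, some of which act in glial and neuronal differentiation in mammals. The member nfic (XLOC_026537) stood at 24.2, 24.6 and 20.6 CPM in WT vehicle, 116, 99.1 and 106 in WT T3, 42.1, 37.7 and 40.4 in mutant vehicle and 66.2, 68.2 and 66.2 in mutant T3. As with thrb, no groups overlapped and the mutant was higher in vehicle (by 0.79, edgeR adjusted p = 0.00059) and lower under T3 (by −0.68, adjusted p = 0.00051). Its log2 difference was −1.47 (standard error 0.11, edgeR adjusted p = 4.8e-05), between 2.21 in WT and 0.74 in the mutant. The member nfix (new_exon_scaffold_448_747) stood at 58.1, 52.0 and 42.4 CPM in WT vehicle, 113, 86.7 and 95.1 in WT T3, 61.0, 56.3 and 51.1 in mutant vehicle and 50.7, 52.4 and 58.9 in mutant T3. The mutant T3 libraries overlapped mutant vehicle, and the log2 fold change of 0.95 in WT was −0.06 in the mutant, a difference of −1.01 (standard error 0.17, edgeR adjusted p = 0.019) that was called in 8 of the 12 fits without 1 library. The other NFI genes, named after their values were seen, were nfib with −0.89 (edgeR adjusted p = 0.085) and nfia with −0.33 (adjusted p = 0.49), neither of which passed.

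The basic helix-loop-helix genes neurod2 and neurod6, which in mammals act in neuronal differentiation, rose with T3 in WT and were lower with T3 in the mutant. For neurod2 (XLOC_034602) the libraries had 24.5, 20.0 and 17.3 CPM in WT vehicle, 30.0, 27.4 and 28.5 in WT T3, 23.4, 26.9 and 24.7 in mutant vehicle and 17.2, 15.3 and 17.5 in mutant T3. The 3 mutant T3 libraries were the lowest of all but WT vehicle replicate 3, which had 17.3, inside their range. The log2 fold change was 0.47 in WT (edgeR adjusted p = 0.018) and −0.59 in the mutant (adjusted p = 0.054), and the difference was −1.06 (standard error 0.16, edgeR adjusted p = 0.011). For neurod6 (XLOC_033612) they had 21.6, 22.6 and 18.9 CPM in WT vehicle, 28.8, 24.5 and 28.3 in WT T3, 25.5, 25.9 and 23.9 in mutant vehicle and 16.6, 17.6 and 19.0 in mutant T3. It rose in WT (log2 fold change 0.37, edgeR adjusted p = 0.021) and fell in the mutant (−0.50, adjusted p = 0.041), with a difference of −0.87 (standard error 0.13, edgeR adjusted p = 0.0097). The 3 members with the most counts, id4, arnt2 and hes6.1, had differences of 0.20, −0.22 and −0.60, and none passed.

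Among 11 nuclear receptor partners and cofactors, 1 was called, with a lower response, and 9 were below 0 (median −0.25, near the −0.23 of all features with a symbol). That is 9.09% called and 81.8% below 0, where all features with a symbol had 3.54% and 89.3%. The gene rcor2 (XLOC_041655), a corepressor of the REST complex family, had 126, 124 and 94.9 CPM in WT vehicle, 217, 207 and 221 in WT T3, 143, 132 and 126 in mutant vehicle and 129, 132 and 155 in mutant T3. The mutant T3 libraries overlapped mutant vehicle, and the WT response of 0.90 stood against 0.05 in the mutant (−0.85; standard error 0.14, edgeR adjusted p = 0.020), with a call in 8 of the 12 fits without 1 library. The arginine methyltransferase gene prmt1, the member with the most counts, had mean levels of 330.2, 469, 349 and 336 CPM in WT vehicle, WT T3, mutant vehicle and mutant T3, and its difference of −0.56 did not pass (edgeR adjusted p = 0.22).

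Genes of protein folding had small responses in WT and values near 0 in the mutant. Of 33 features tested, 3 were called with a lower response and 32 were below 0, with a median of −0.30 (median response 0.33 in WT and 0.02 in the mutant). These medians were close to those of all features with a symbol, which were −0.23 for the difference, 0.29 in WT and 0.05 in the mutant, with 3.54% called and 89.3% below 0. The called members were dnaja1 and dnajb1, which encode Hsp40 partners of Hsp70, and ahsa1, which encodes an activator of the Hsp90 ATPase. For dnaja1 (XLOC_040207) the values were 91.5, 85.2 and 82.9 CPM in WT vehicle, 117, 132 and 134 in WT T3, 103, 83.8 and 106 in mutant vehicle and 90.7, 85.2 and 79.2 in mutant T3. WT T3 lay above every other library. The difference was −0.76 (standard error 0.12, edgeR adjusted p = 0.018). For dnajb1 (XLOC_007835) they were 65.9, 63.2 and 61.0 CPM in WT vehicle, 73.4, 81.9 and 80.4 in WT T3, 69.8, 70.6 and 72.8 in mutant vehicle and 68.1, 58.7 and 60.4 in mutant T3. The mutant T3 libraries lay below the mutant vehicle libraries while the WT T3 libraries lay above WT vehicle, and the difference was −0.50 (standard error 0.09, edgeR adjusted p = 0.029). For ahsa1 (XLOC_026747) they were 30.8, 27.6 and 22.2 CPM in WT vehicle, 44.8, 44.7 and 45.9 in WT T3, 32.0, 27.0 and 32.4 in mutant vehicle and 28.6, 31.7 and 29.1 in mutant T3. All WT T3 libraries stood above all other libraries, with a difference of −0.78 (standard error 0.15, edgeR adjusted p = 0.037). Of the 12 fits without 1 library, dnaja1 was called in 7, dnajb1 in 4 and ahsa1 in 3. The members with the most counts, calr, cct6a and hsp90b1, had differences of −0.38, −0.32 and −0.51, none of which passed.

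Ribosome biogenesis showed the same direction in nearly all members without a call in any. Of 74 features tested, 73 had a difference below 0 (pwp2 was above), 19 had an unadjusted p under 0.05 (25.7%, against 52.6% of all features with a symbol and 14.4% of all features), and none passed edgeR's test, while limma-voom called 0 and DESeq2 3. The list had a median log2 fold change of 0.40 in WT and 0.13 in the mutant, and the median difference of −0.27 was close to the −0.23 of all features with a symbol. The gene ncl, which encodes nucleolin and had the most counts of the list, stood at mean levels of 807, 989.5, 856 and 903 CPM in the 4 groups in the same order, a difference of −0.22 (edgeR adjusted p = 0.50). For rrp1b and rbm28, the next by counts, the differences were −0.23 and −0.11.

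In the list of cell cycle and growth signalling, 1 of 17 features was called, 15 were below 0, and the median was −0.26, all near the values of all features with a symbol (3.54% called, 89.3% below 0, median −0.23). The called member irs1 (XLOC_017434) encodes the insulin receptor substrate that passes on signals of the insulin and IGF receptors. It stood at 57.5, 60.2 and 50.7 CPM in WT vehicle, 118, 111 and 119.7 in WT T3, 63.2, 62.4 and 70.1 in mutant vehicle and 84.7, 81.5 and 80.2 in mutant T3. No groups overlapped, and the difference was −0.72 (standard error 0.10, edgeR adjusted p = 0.0057) between 1.05 in WT and 0.33 in the mutant. The cyclin gene ccnj had a difference of −0.49 (95% interval −0.76 to −0.22, edgeR adjusted p = 0.11). The kinase genes cdk8, cdk13 and cdk11b had differences of −0.41, −0.23 and −0.22, and the cell cycle transcription factor gene e2f6 had −0.17. None of these passed, and the adjusted p ran from 0.11 to 0.42 (edgeR). DESeq2 called 3 members of the list, irs1 and ccnj (adjusted p = 0.013) among them. The feature XLOC_033911, which carries the symbols ccnd2 and c12orf5 and so cannot be given to a single gene, had −0.45 (edgeR adjusted p = 0.12) and was called by DESeq2 (adjusted p = 0.018). The members with the most counts were rheb, akt1 and rps6kb1, at −0.19, −0.30 and −0.10.

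Among 19 matrix proteases and matrix proteins, mmp11 was the only called member, 14 were below 0, and the median of −0.14 was nearer to 0 than that of all features with a symbol. The shares were 5.26% called and 73.7% below 0, where all features with a symbol had 3.54% and 89.3%. The members with the most counts, col4a6, mmp24 and mmp17, had differences of 0.02, −0.37 and 0.09. Of 26 genes of neuronal signalling and neuropeptides, 2 were called, both lower, and 18 were below 0 (median −0.21). That is 7.69% called and 69.2% below 0, against 3.54% and 89.3% of all features with a symbol. The gene inhbb (XLOC_031103), which encodes the β subunit of activin B, stood at 1.15, 0.838 and 0.647 CPM in WT vehicle, 11.2, 9.03 and 11.7 in WT T3, 0.652, 1.09 and 1.37 in mutant vehicle and 3.83, 2.78 and 3.74 in mutant T3. It rose in both genotypes, and the difference was −1.87 (standard error 0.35, edgeR adjusted p = 0.035). This call held in only 2 of the 12 fits that left out 1 library. The receptor gene brs3 (XLOC_020715), an orphan receptor of the bombesin family known in mammals for energy balance, stood at 8.71, 7.83 and 6.80 CPM in WT vehicle, 12.3, 9.67 and 9.57 in WT T3, 9.74, 11.7 and 12.1 in mutant vehicle and 6.95, 6.01 and 6.37 in mutant T3. In WT the T3 libraries lay above vehicle, without a call (log2 fold change 0.43, edgeR adjusted p = 0.051), and in the mutant it fell by 0.80 on the log2 scale (adjusted p = 0.027). The difference of −1.23 (standard error 0.18, edgeR adjusted p = 0.011) was called in all 12 fits without 1 library.

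The differences largest in size were of genes near absent in 3 of the 4 groups. The phospholipase gene pla2g2e (XLOC_025285) had 22, 22 and 20 counts in WT vehicle, 3506, 4464 and 5558 in WT T3, 30, 74 and 9 in mutant vehicle and 11, 10 and 9 in mutant T3, that is 74.6 to 109 CPM in WT T3 and at most 1.39 CPM elsewhere. Its log2 difference was −9.66 (standard error 0.79, 95% interval −11.4 to −7.97, edgeR adjusted p = 0.00012), from responses of 7.81 in WT and −1.86 in the mutant. Without mutant vehicle replicate 2, the library with 74 counts, the difference was −8.63. The gene xb-gene-5779195 (XLOC_035114), which RefSeq names crisp1.7, had 5, 11 and 13 counts in WT vehicle, 717, 1176 and 1220 in WT T3, 16, 28 and 15 in mutant vehicle and 15, 3 and 12 in mutant T3 and a difference of −7.74 (standard error 0.70, edgeR adjusted p = 0.00025). The gene OTOL1 (XLOC_030373), which encodes otolin of the inner ear, had 3, 4 and 4 counts in WT vehicle, 176, 203 and 292 in WT T3, 0, 11 and 3 in mutant vehicle and 1, 2 and 3 in mutant T3 and a difference of −7.09 (standard error 1.08, edgeR adjusted p = 0.012); with so few counts outside WT T3 its size is loosely set (95% interval −9.41 to −4.77). Its call was lost with limma-voom (adjusted p = 0.05004), with limma-voom and group weights (adjusted p = 0.075), at equal depth in edgeR (adjusted p = 0.073) and in edgeR without mutant vehicle replicate 2 (adjusted p = 0.084). Both pla2g2e and OTOL1 are members of a marker list of the inner ear, a tissue outside the dissected region. All 5 members of the list had values below 0, 2 of them called by edgeR and DESeq2 and 1 by limma-voom. Of all features with a symbol, 3.54% were called and 89.3% were below 0. The members OTOL1 and otop1 passed the filter on low counts through WT T3, so their sign was largely set in advance. The summed level, most of it pla2g2e in WT T3, was 14.6 to 17.7 CPM in WT vehicle, 101 to 138 CPM in WT T3, 19.4 to 19.9 CPM in mutant vehicle and 16.6 to 20.3 CPM in mutant T3. The 3 members that were not called summed to 14.1 to 17.2 CPM in WT vehicle, 22.0 to 23.9 CPM in WT T3, 18.3 to 19.3 CPM in mutant vehicle and 16.4 to 20.1 CPM in mutant T3. The member otop1 had 1, 0 and 0 counts in WT vehicle, 73, 122 and 127 in WT T3, 2, 0 and 0 in mutant vehicle and 2, 0 and 0 in mutant T3, so that it was at 0 in 6 of the 9 libraries outside WT T3, while ush1g, the member with the most counts outside WT T3, had a difference of −0.34. The 3 markers of muscle and epithelium tested on a feature with 1 symbol (cnn1, epcam and cldn3) summed to 22.1 to 25.9 CPM in WT T3 and to 11.5 to 17.9 CPM in the other groups, and edgeR, limma-voom and DESeq2 each called 0 of them (2 had an unadjusted edgeR p under 0.05). The other markers of that list, myoz1, xirp1, lmod3 and krt12, lay on features with several symbols and were left out of the sum. This left cnn1 as its only muscle marker, and edgeR called none of those features. The part of such tissue in the values of these genes was not tested.

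Further genes with large differences and a symbol were ca12, napsa and frem3. The carbonic anhydrase gene ca12 (XLOC_000692) stood at 0.617, 0.474 and 0.501 CPM in WT vehicle, 3.30, 4.41 and 5.69 in WT T3, 1.06, 0.619 and 0.685 in mutant vehicle and 0.770, 0.668 and 0.716 in mutant T3. The mutant groups overlapped each other, and the difference was −3.21 (standard error 0.36, edgeR adjusted p = 0.0014). The aspartic protease gene napsa (XLOC_033584) had 1.63, 2.26 and 3.32 CPM in WT vehicle, 5.58, 6.48 and 6.24 in WT T3, 2.59, 4.07 and 3.04 in mutant vehicle and 2.55, 2.27 and 2.61 in mutant T3, a difference of −1.73 (standard error 0.31, edgeR adjusted p = 0.028), and frem3 (XLOC_032580), an extracellular matrix gene, had 2.61, 3.59 and 3.05 CPM in WT vehicle, 8.86, 9.98 and 10.4 in WT T3, 4.55, 3.08 and 3.88 in mutant vehicle and 4.62, 3.55 and 4.73 in mutant T3, a difference of −1.50 (standard error 0.23, edgeR adjusted p = 0.014). In both, all WT T3 libraries lay above all others while mutant T3 and mutant vehicle overlapped, and the calls held in 4 (napsa) and 11 (frem3) of the 12 fits without 1 library. The features without a symbol at the low end were XLOC_009068, with 0.478, 0.929 and 0.563 CPM in WT vehicle, 17.1, 14.3 and 13.2 in WT T3, 1.53, 2.51 and 1.37 in mutant vehicle and 13.1, 7.79 and 8.39 in mutant T3, and XLOC_005208, with 0.716, 0.455 and 0.876 CPM in WT vehicle, 3.09, 3.36 and 3.16 in WT T3, 0.790, 1.11 and 1.15 in mutant vehicle and 1.40, 1.39 and 1.11 in mutant T3. XLOC_009068 rose in both genotypes and its difference was −2.04 (standard error 0.40, edgeR adjusted p = 0.041), called in only 3 of the 12 fits without 1 library. For XLOC_005208 the difference was −1.88 (standard error 0.32, edgeR adjusted p = 0.022), called in 7 of those 12, and the mutant groups overlapped.

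**Figure D3:**
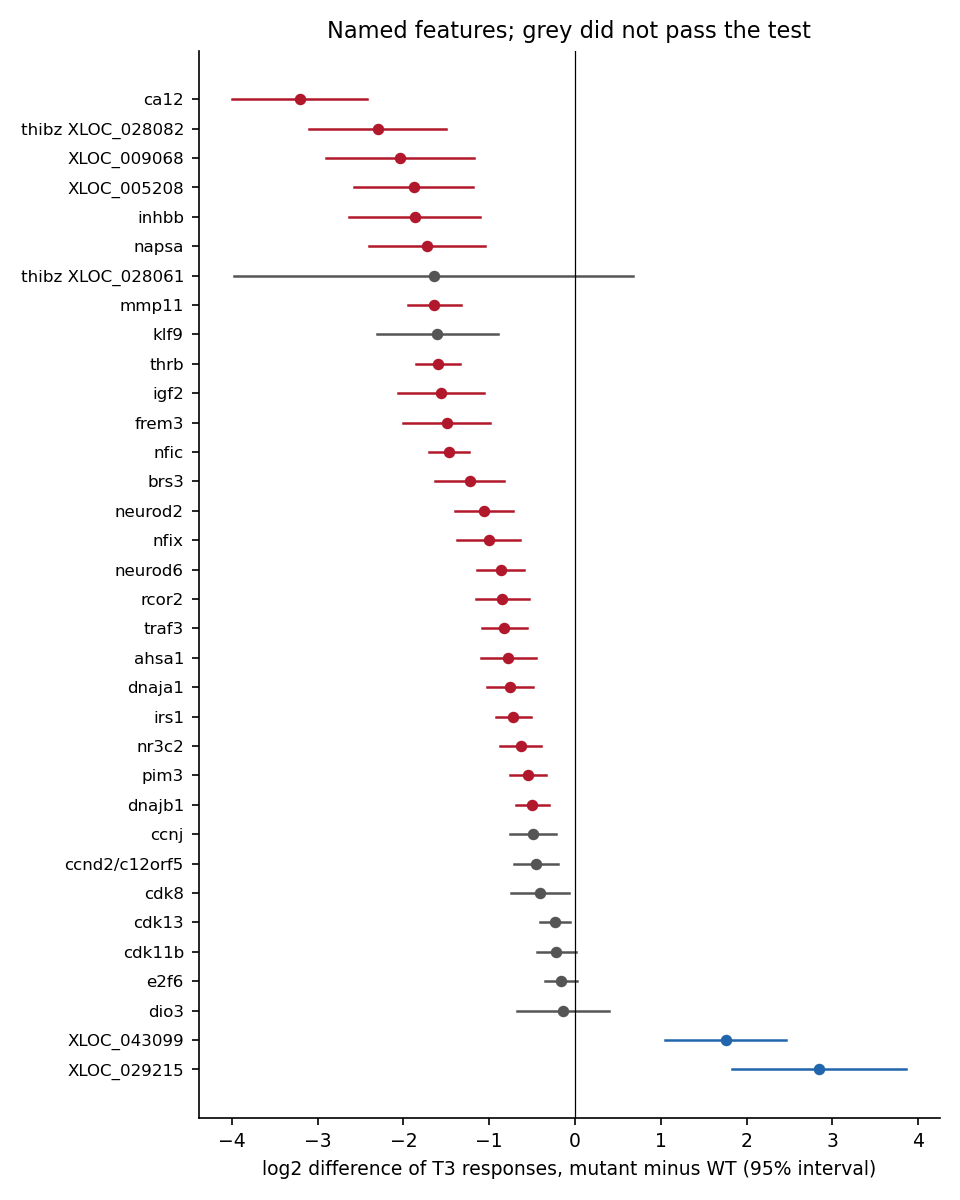
Log2 difference of the T3 responses, mutant minus WT, for 34 of the 37 named features, with 95% intervals that are not adjusted for the number of features tested; red and blue passed the interaction test and grey did not. Not drawn are pla2g2e, xb-gene-5779195 and OTOL1 at −9.66, −7.74 and −7.09. The intervals of thrb, nfic and mmp11 are among the narrowest relative to their size, and that of dio3 spans 0.

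Genes in the following 4 paragraphs were chosen after their values were seen, unless named above. Of the 26 features with a lower response whose mutant response had the opposite sign, 10 had an unadjusted p under 0.05 in the mutant, and 1, neurod6, was called in both genotypes. The 10 were neurod6, neurod2, brs3, dnaja1, dnajb1, pla2g2e, lman1l, c5orf30, XLOC_011099 and XLOC_022478. For pla2g2e and dnaja1 the mutant groups with and without T3 overlapped. The counts of pla2g2e were low, with 30, 74 and 9 in mutant vehicle and 11, 10 and 9 in mutant T3. The mutant response is a term of the interaction and shares its libraries, so the choice of features favours this count. The share of all features with such a p in the mutant is not given here. The gene lman1l (XLOC_019578), of the lectin family of cargo receptors, stood at 8.34, 7.18 and 6.11 CPM in WT vehicle, 10.8, 10.9 and 9.56 in WT T3, 11.4, 13.2 and 13.0 in mutant vehicle and 8.64, 7.10 and 8.93 in mutant T3. All 3 T3 libraries lay above vehicle in WT and below vehicle in the mutant, with log2 fold changes of 0.53 and −0.61 and a difference of −1.14 (standard error 0.18, edgeR adjusted p = 0.014). The feature XLOC_022478 ranged from 29.7 to 44.6 CPM over all libraries and was, with brs3, the only feature of the 78 whose WT response was not called (log2 fold change 0.18 in WT and −0.40 in the mutant), and its interaction was called in 1 of the 12 fits without 1 library. Counted in either direction, the mutant libraries with and without T3 did not overlap for 44 of the 78 and 18 of the 38, where this held for 15.2% of all features. The 44 include features that rose with T3 in both genotypes, such as thrb.

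The 38 features with a higher response are known by identifier only. In WT all had a log2 fold change below 0, the one nearest to 0 being −0.05, and the WT response was called for 35. In the mutant 31 had a response above 0, 13 of these with an unadjusted p under 0.05, and 1 (XLOC_044169) was called in both genotypes. These counts too are favoured by the choice of features, and the shares of all features for them are not given here. XLOC_044169 stood at 66.0, 74.0 and 68.1 CPM in WT vehicle, 57.5, 60.0 and 56.3 in WT T3, 50.6, 52.8 and 52.8 in mutant vehicle and 76.1, 71.4 and 67.0 in mutant T3. T3 lowered it in WT (−0.26, edgeR adjusted p = 0.018) and raised it in the mutant (0.46, adjusted p = 0.0055), and none of the groups that share a genotype or a treatment overlapped. Its difference was 0.72 (standard error 0.09, edgeR adjusted p = 0.0021). XLOC_029072 was the feature most lowered by T3 in WT among the 38, with 93.6, 91.9 and 123 CPM in WT vehicle, 23.3, 27.1 and 21.0 in WT T3, 112, 128 and 120.5 in mutant vehicle and 82.7, 77.8 and 102 in mutant T3. It was lower with T3 in the mutant too, by 0.46 on the log2 scale against 2.11 in WT, and the difference was 1.65 (standard error 0.18, edgeR adjusted p = 0.0011). XLOC_035879 had 37.7, 36.3 and 37.6 CPM in WT vehicle, 20.4, 19.4 and 20.1 in WT T3, 37.7, 31.9 and 37.8 in mutant vehicle and 48.9, 38.3 and 38.8 in mutant T3. The genotypes overlapped in vehicle, and under T3 the mutant libraries were at 38.3 CPM or more while WT libraries were at 20.4 CPM or less (difference 1.13; standard error 0.13, edgeR adjusted p = 0.0021).

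By the largest difference the 2 leading features were XLOC_029215 and XLOC_043099, both of low level. XLOC_029215 had 73, 101 and 87 counts in WT vehicle, 36, 54 and 31 in WT T3, 13, 26 and 17 in mutant vehicle and 53, 75 and 71 in mutant T3. The mutant was lower than WT in vehicle (log2 difference −2.42, edgeR adjusted p = 0.0088), the groups overlapped under T3, and the interaction was 2.84 (standard error 0.47, edgeR adjusted p = 0.019), called in 7 of the 12 fits without 1 library. XLOC_043099 had 119, 79 and 85 counts in WT vehicle, 27, 37 and 49 in WT T3, 66, 47 and 62 in mutant vehicle and 67, 86 and 85 in mutant T3, and an interaction of 1.75 (standard error 0.33, edgeR adjusted p = 0.034) that held in 2 of the 12 fits without 1 library. XLOC_034932 had no response in WT that passed the test, with 70.9, 62.6 and 64.0 CPM in WT vehicle, 62.7, 64.3 and 63.9 in WT T3, 39.3, 36.0 and 45.1 in mutant vehicle and 65.8, 58.5 and 60.6 in mutant T3. Its mutant vehicle libraries alone stood apart from the others, and the difference was 0.67 (standard error 0.11, edgeR adjusted p = 0.020), likewise called in 7 of 12.

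A difference of responses can arise in vehicle, under T3 or on both sides. For 62 of the 78 features with a lower response and 28 of the 38 with a higher one, the genotype difference was the larger under T3. For the 78 the median log2 difference of mutant over WT was 0.24 in vehicle and −0.60 under T3, and for the 38 it was −0.20 in vehicle and 0.54 under T3. In vehicle, 67 of the 78 lay above WT and 30 of the 38 below it, that is, towards the level that T3 gives in WT. The shares of all features for these counts are not given here, so the counts are a description only. Over all features, too, more genotype differences were called under T3 than in vehicle. The genotype difference passed the test under T3 for 67 of the 78 and 30 of the 38 (6.88% of all features did), and in vehicle for 12 and 6 (0.577% of all features did). Under T3 the libraries of the genotypes did not overlap for 77 of the 78 (all but pim3) and 34 of the 38, where 33.9% of all features were so separated. In vehicle this held for 41 of the 78 and 22 of the 38, where 15.4% of all features were. These vehicle and T3 values are parts of the interaction itself and share its libraries.

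**Figure D4:**
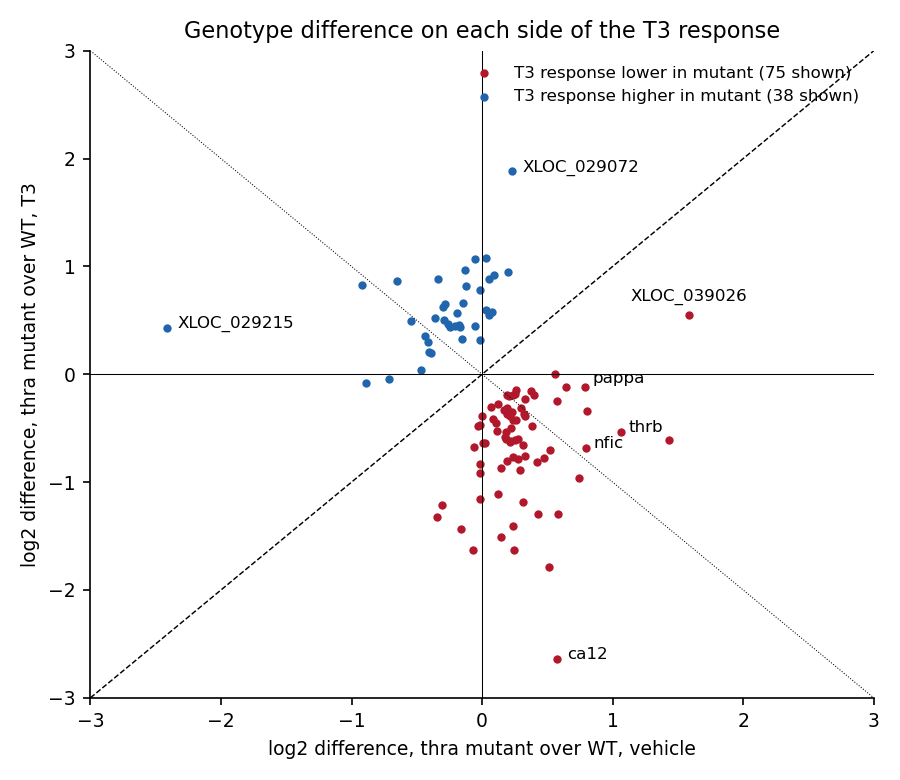
Log2 difference of mutant over WT in vehicle (x axis) and under T3 (y axis) for 113 of the 116 called features; points near the vertical line differ under T3 alone, points between the dotted line and the horizontal line have the larger difference in vehicle, and the dashed line marks an interaction of 0. Most red points lie to the right of 0 and below it, most blue points to the left and above; pla2g2e, xb-gene-5779195 and OTOL1 lie below the axis at −9.04, −6.93 and −6.95.

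The 18 features whose genotype difference was called in vehicle included nfic, thrb, pim3 and traf3, and among the others with a symbol cidea, pappa, lman1l and dot1l. The gene pappa (XLOC_006154), which encodes a protease that cleaves IGF-binding proteins, stood at 14.2, 15 and 14.6 CPM in WT vehicle, 43.6, 42.6 and 43.4 in WT T3, 23.8, 24.5 and 27.1 in mutant vehicle and 41.2, 37.2 and 41.0 in mutant T3. Vehicle levels of the mutant were above WT by 0.79 on the log2 scale (edgeR adjusted p = 0.00043), and under T3 the difference was −0.12 (adjusted p = 0.30), so that its interaction of −0.91 (standard error 0.10, edgeR adjusted p = 0.00096) lay almost wholly in vehicle. The gene cidea (XLOC_012050), known in mammals from lipid droplets, had 28.8, 32.4 and 31.3 CPM in WT vehicle, 66.4, 60.7 and 64.4 in WT T3, 41.3, 39.2 and 40.1 in mutant vehicle and 48.1, 46.1 and 43.4 in mutant T3, with differences of 0.38 in vehicle and −0.48 under T3 (interaction −0.86; standard error 0.09, edgeR adjusted p = 0.00094). XLOC_039026 was the only one of the 78 whose mutant libraries lay above WT without overlap both in vehicle and under T3, with 9.53, 10.3 and 6.57 CPM in WT vehicle, 17.8, 20.9 and 21.9 in WT T3, 29.0, 24.8 and 25.6 in mutant vehicle and 30.6, 26.7 and 31.5 in mutant T3. Its interaction was called in 2 of the 12 fits without 1 library. The feature of the highest level per length under T3 among the 116, XLOC_014132, stood at 219, 1415, 365 and 722 TPM (a level per length, the mean of 3) in WT vehicle, WT T3, mutant vehicle and mutant T3. It followed the pattern of thrb, with no overlap between any groups and an interaction of −1.71 (standard error 0.18, edgeR adjusted p = 0.00094).

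Among further called genes with a symbol were several that encode extracellular regulators and transcription regulators. The gene fstl3 (XLOC_035983), which encodes a secreted protein that binds activin, stood at 8.56, 10.3 and 8.12 CPM in WT vehicle, 30.5, 23.9 and 26.0 in WT T3, 9.05, 9.66 and 10.7 in mutant vehicle and 11.4, 12.7 and 13.1 in mutant T3. The difference of −1.23 (standard error 0.17, edgeR adjusted p = 0.0057) was called in all 12 fits without 1 library. The transcriptional repressor gene bcl6 (XLOC_040863) had 23.9, 25.5 and 31.8 CPM in WT vehicle, 75.3, 71.0 and 78.8 in WT T3, 31.7, 34.5 and 34.6 in mutant vehicle and 47.7, 45.6 and 49.5 in mutant T3. It rose in both genotypes, by 1.47 in WT and 0.50 in the mutant, and the difference was −0.97 (standard error 0.13, edgeR adjusted p = 0.0055). The forkhead gene foxo6 (XLOC_029290) had a difference of −0.69 (standard error 0.09, edgeR adjusted p = 0.0048), the histone methyltransferase gene dot1l one of −0.53 (standard error 0.10, edgeR adjusted p = 0.045), and ubtf, which encodes a factor of RNA polymerase I transcription, one of −0.40 (standard error 0.08, edgeR adjusted p = 0.040). With dot1l and ubtf the calls were lost in most fits without 1 library, where they held in 1 and 4 of 12.

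The number of calls with 1 library left out differed between the groups. Each such fit has fewer samples, so a lost call does not show that it rested on the library left out. Of the 116, 31 were called in all 12 fits that left out 1 library, 26 of them lower and 5 higher, and the same 31 were called in every other alternative tried. Among them were thrb, nfic, mmp11, igf2, traf3, irs1, neurod2, neurod6, brs3, pla2g2e and ca12. The number called was 42, 54 and 38 without WT T3 replicates 1, 2 and 3, 69 without WT vehicle replicate 2, 62 without mutant vehicle replicate 1, and 71 and 59 without mutant T3 replicates 2 and 3. Without WT vehicle replicate 3 it was 129, of which 98 were among the 116. DESeq2, another count model, called 658 of the features it tested (2.2%), all 116 included. In all fits more features were called lower than higher. The p values measure the spread between pools of tadpoles.

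**Figure D5:**
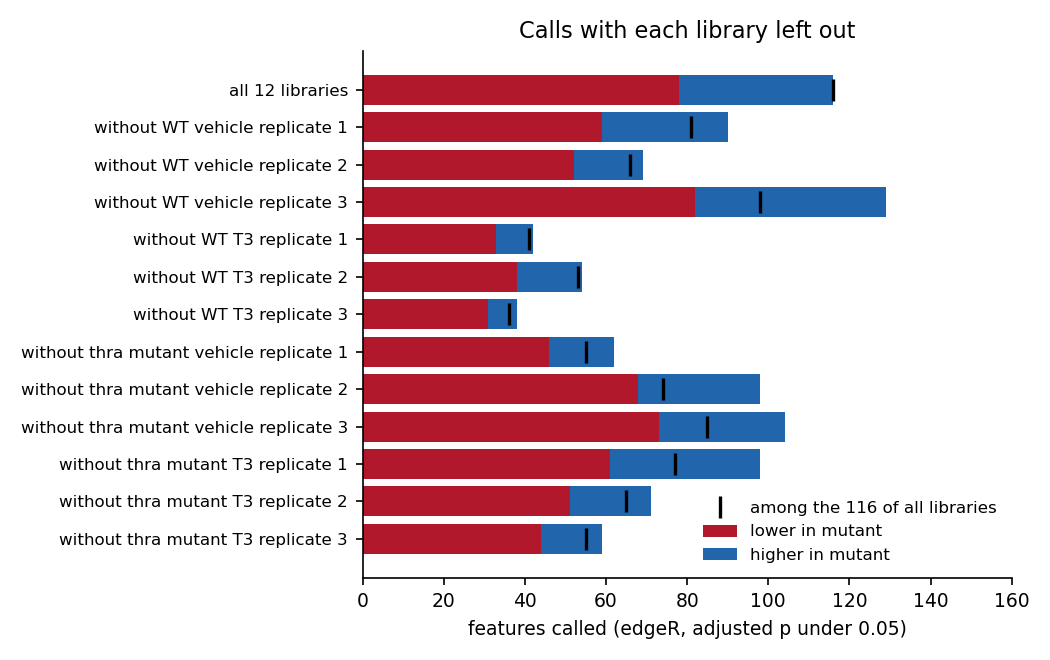
Number of features called for the interaction (edgeR, adjusted p under 0.05) with all 12 libraries and with each left out in turn, split into lower (red) and higher (blue) responses in the mutant; the black mark shows how many of the calls are among the 116. The numbers run from 38 to 129, with the fewest calls when a WT T3 library is left out.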

How the data were processed

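RNA of the preoptic area, thalamus and hypothalamus with the pituitary was sequenced in 12 libraries, 3 each for WT vehicle, WT T3, thra mt-exon4 vehicle and thra mt-exon4 T3, grouped by their labels. Per the methods, single-end reads were mapped with Bowtie (X. tropicalis genome v4.1) and counted with RSEM over the MNHN gene model. Strand use in counting is not given in the sources used here. Deposited values are RSEM expected counts by the authors, that is estimated counts per feature without normalization, for which RSEM divides reads of several possible origins (56.9% to 59.8% of values were not whole). TPM values, which the authors made with RSEM from the same counts and feature lengths and deposited for each library, were used for 1 level. FPKM values, which the authors made with RSEM from these counts and deposited likewise, were not used. No column belonged to another sample.

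Expected counts were rounded, scaled by TMM and filtered with filterByExpr, and 22018 features (4116 of them new_exon) entered 1 quasi-likelihood fit of 4 group means in edgeR 4.0.16 under R 4.3.3, with Benjamini-Hochberg adjustment over all features at 0.05. Standard errors are the log2 difference over the square root of F. The study's methods name limma; since the values are counts, limma-voom (limma 3.58.1) was run as an alternative, as were voom with group weights, DESeq2 1.42.0, size factors by median of ratios, the omission of the filter, leaving out new_exon features, equal depth, a replicate block, unrounded counts and each library left out in turn. The steps were also run on simulated counts, with 1 spread per feature shared by all 4 groups. Such counts do not test the effect of a spread that differs between groups, as it did here. Plots used matplotlib 3.10.9 (Python 3.11.15).

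The members and lists were chosen with earlier results of these data known. Named genes are the brain mRNAs of the paper that could be paired with an identifier, the 12 called features with a symbol with the most negative differences (none with a positive one had a symbol), the 2 without a symbol at each end, and called members of the lists. Symbols came from the identifiers of a supplementary table of the paper, of which part was used here, and paired 1554 features. Of these, 49 identifiers carried more than 1 symbol and were left out of the lists, but not of the values of all features with a symbol. Some genes, among them members of the lists, are not reported here. Columns of the authors' own comparisons in that table hold fold changes and p values and were not used. The symbol thra was paired with no identifier. Sequences and genome positions are not given here because no reference of the files' build was used.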

Additional observations from a re-analysis of the deposited data

Results flagged for a closer look

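The test of the difference of T3 responses between WT and mutant was passed by 116 features, and the named ones among them are given here with their log2 difference (mutant minus WT). Among genes near absent outside WT T3 these were pla2g2e at −9.66, xb-gene-5779195 at −7.74 and OTOL1 at −7.09. Among genes of the early T3 response they were thibz at −2.30, mmp11 at −1.64, thrb at −1.60, igf2 at −1.56, traf3 at −0.82, nr3c2 at −0.63 and pim3 at −0.55. The transcription factor and corepressor genes were nfic at −1.47, neurod2 at −1.06, nfix at −1.01, neurod6 at −0.87 and rcor2 at −0.85. The chaperone genes were ahsa1 at −0.78, dnaja1 at −0.76 and dnajb1 at −0.50. The signalling genes were inhbb at −1.87, brs3 at −1.23 and irs1 at −0.72, and other genes were ca12 at −3.21, napsa at −1.73 and frem3 at −1.50. Features without a symbol were XLOC_009068 at −2.04, XLOC_005208 at −1.88, XLOC_043099 at 1.75 and XLOC_029215 at 2.84. Of the genes with a symbol, brs3, neurod2 and neurod6 are those a reader may want to look at first, since their libraries with T3 lay above vehicle in WT and below it in the mutant without overlap, and all 3 were called in every alternative. The libraries of lman1l and dnajb1 were separated likewise, and dnajb1 was called in 12 of 21 alternatives. The WT response of brs3 (edgeR adjusted p = 0.051) and the mutant response of neurod2 (edgeR adjusted p = 0.054) were not called.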

How the results depend on the processing

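Of the 116 calls (78 lower, 38 higher), DESeq2 gave 658 (393 lower, 265 higher; all 116 shared), and the cause was not tested. Leaving out 1 library gave 38 to 129 calls, 31 to 82 of them lower and 7 to 47 higher, with fewer samples in each such fit. The deviations of same-numbered libraries from their group means showed no strong shared effect of the replicate number (correlation −0.085 to 0.072). This cannot exclude that same-numbered libraries had a common origin. With the replicate number as a block 75 features were called, 52 lower and 23 higher, 72 of them among the 116. The other alternatives gave 94 (equal depth) to 122 (median-of-ratios size factors) calls. Over the 37 named features and 21 alternatives, 651 of 776 values kept their direction and side of the threshold, 113 kept the direction but were no longer called and 10 kept it and were newly called (8 of klf9). With 1 library left out, the difference of dio3 ran from −0.33 to 0.067 and reversed without WT vehicle replicate 2 (0.0091) and mutant vehicle replicate 2 (0.067), in neither with a call. Over the other 88 called features no value reversed and 587 of 1839 were no longer called. Median-of-ratios scaling left the number of members below 0 the same in every list but the chaperones (33 for 32). Depth limits genes such as OTOL1 and otop1, with a few counts outside WT T3.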

Other observations

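Called new_exon features numbered 10, of which 9 carry no symbol, and 3 of these 9 came from 1 scaffold of the assembly, scaffold 515. The 8 new_exon features of that scaffold that were tested, numbered 1182 to 1200 in the deposited table, had differences below 0, and 3 of the 8 passed the test. The scaffold was singled out because it held these calls, and 0.527% of all features tested were called. Features 1191, 1193 and 1194 had few counts, and their 95% intervals spanned 0 (−3.88 to 2.48, −4.48 to 0.97 and −2.41 to 0.31). The feature new_exon_scaffold_515_1182 stood at 6.21, 5.34 and 3.90 CPM in WT vehicle, 15.6, 14.8 and 17.9 in WT T3, 5.37, 5.36 and 4.60 in mutant vehicle and 7.09, 7.03 and 7.51 in mutant T3. The log2 fold change was 1.64 in WT and 0.50 in the mutant, and the difference was −1.15 (standard error 0.20, edgeR adjusted p = 0.026). The other called members, 1189 and 1199, had differences of −1.17 and −0.88. Whether these stretches belong to a single transcript was not tested.

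The feature with the symbol xtr-mir-181a-2 (XLOC_044167), 7393 bases long in the deposited table and so a host transcript and not the mature miRNA, stood at 8.08, 8.14 and 7.76 CPM in WT vehicle, 17.3, 16.6 and 18.1 in WT T3, 8.98, 8.27 and 6.46 in mutant vehicle and 9.99, 9.44 and 8.16 in mutant T3. Its difference was −0.90 (standard error 0.17, edgeR adjusted p = 0.032), and the call held in 2 of the 12 fits without 1 library. Further called genes with a symbol, with a lower response in the mutant, were pmepa1, which encodes a membrane protein that dampens TGF-β signalling in mammals, at −0.90 (edgeR adjusted p = 0.035), arl4a, a small GTPase gene, at −0.71 (adjusted p = 0.0068), ikzf2, a zinc finger transcription factor gene, at −0.60 (adjusted p = 0.023), and gtf2b, which encodes the general transcription factor TFIIB, at −0.56 (adjusted p = 0.047). Of these arl4a alone was called in all 12 fits without 1 library.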
